A study of Drosophila melanogaster with 6 samples.

Results

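Agilent arrays often carry several probes for the same annotated transcript, and for most transcripts these probes gave about the same difference between Top3b26 and wild-type fly heads. The transcripts described here are the 100 for which they differed most. They were chosen among transcripts with FlyBase identifiers (FBtr) that had 2 or more probes well above background on all 6 arrays, which was the case for 3279 of the 15995 FBtr transcripts on the array. For each probe the mean normalized level over the WT arrays was subtracted from that over the Top3b26 arrays. The gap between the highest and the lowest of these differences, called the probe gap below, ranked the transcripts, and the 100 largest gaps were taken. The 14 transcripts at which every probe differed by 2 or more (log2) in the same direction were left out beforehand, and 0 of them had a gap large enough to enter. The members thus were picked by the comparison of genotypes itself, so their differences between genotypes are given as a description, and the tests beside them support nothing about the set.

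Heads of adult flies were pooled for each of 6 RNA samples. Of these, 3 came from w1118 flies, used as wild type (WT), and 3 from Top3b26 mutants. The paper describes 3 independently prepared sets of RNA samples. Both groups are listed with the W1118 background, and the labels give neither a treatment nor sex or exact age. Top3b26 is 1 mutant allele, obtained by remobilizing a P-element, so the groups also differ in whatever else sets these stocks apart. Top3beta is a type IA topoisomerase that acts on both DNA and RNA and works together with the Tudor protein TDRD3. The arrays lay on 2 slides, with WT 1, WT 2 and Top3b26 1 on slide 1 and the other three on slide 2. The median processed signal ranged from 57.2 times that of the negative controls on Top3b26 2 to 186 times on Top3b26 3, and these arrays differed most within their group. Of the head, fat body, testis and ovary marker genes looked for, 0 carried a name that could be matched, so the labelled tissue was not checked on these arrays.

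An FBtr identifier names 1 annotated transcript, and a fly gene commonly gives rise to several through alternative promoters, splicing and 3′ ends. Each probe on this array is a single oligonucleotide and reads only the RNA that hybridizes to its own sequence, so probes listed under the same transcript may read different subsets of a gene's RNA. Probe sequences and their places within transcripts were not used here. None of the 100 identifiers was matched to a gene name in the reference table, so the members are given by their identifiers and without gene function.

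The 100 members had 256 probes that entered the comparison, of 264 on the array. With 2 probes there were 64 members, with 3 there were 24, with 4 there were 6, with 5 there were 4 and with 6 there were 2. Members with 3 or more probes made up 36 of 100, against 559 of the 3179 other transcripts (17.6%). The range over more probes is larger by construction, so this excess is in part fixed by the rule. The probe gap of the members ranged from 1.17 to 4.89 (log2), with a median of 1.503, while the median of the other transcripts was 0.18. It was 2 or more at 25 members and 3 or more at 9. Just inside the limit lay members with gaps of 1.1695 and 1.1691, and just outside it transcripts with 1.1648 and 1.1575.

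**Figure D1:**
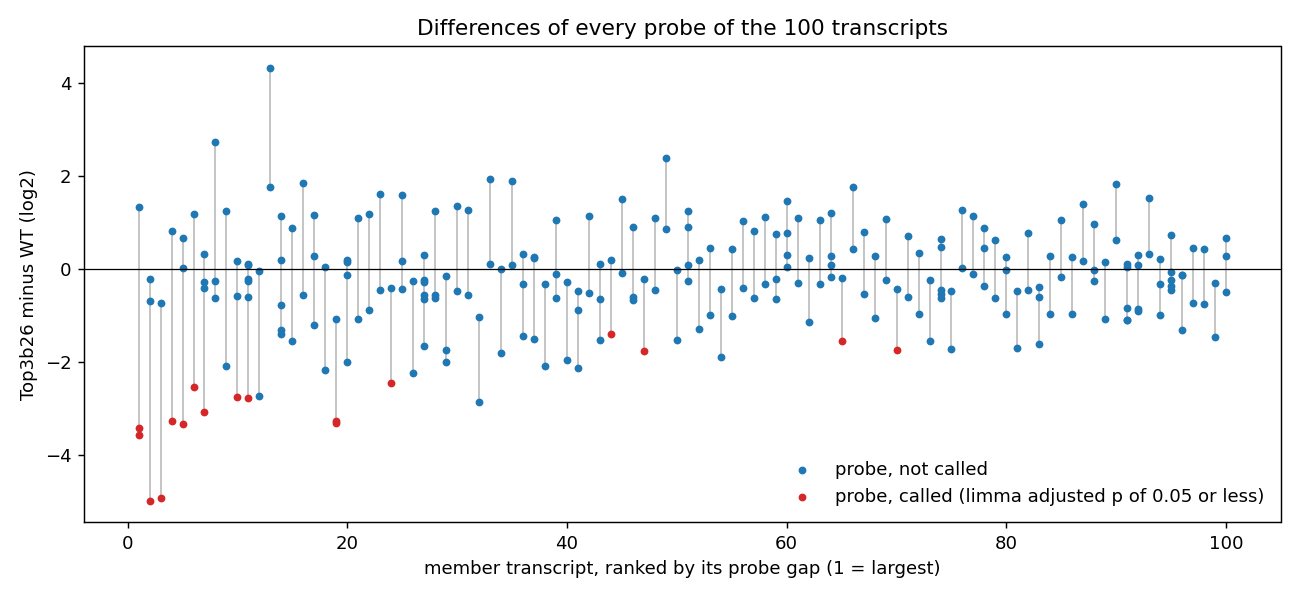
Difference between Top3b26 and WT (log2, mean of 3 arrays minus mean of 3 arrays) of all 256 probes of the 100 transcripts, which are ordered along the x axis by their probe gap. Each point is a probe, a grey line joins the highest and the lowest probe of a transcript, and red points are the 17 probes called by limma. All 17 were lower in Top3b26, whereas 4 and 9 member probes were called higher after the 75th percentile and the median-difference shift.

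In most members a changed probe was accompanied by a probe with little or no difference. At 57 members, 1 of the 2 extreme probes differed by at least 1 (log2) and the other by less than 0.5, and at 36 of these the changed probe was lower in Top3b26. Of the other transcripts, 45 had such a pair, and at 28 of these the changed probe was lower. The largest difference of a member was a decrease at 56 and an increase at 44, against 2193 and 986 of the 3179 other transcripts. Members thus leaned less to decreases than the others did. The highest and lowest probes had opposite signs at 68 members, where 26.2% of all 3279 transcripts did. All probes were lower at 22 members and all were higher at 10, against 1782 and 606 of the other transcripts. Opposite differences of at least 1 each way were seen at 6 members and at 0 of the other transcripts, and at 21 members neither extreme probe reached 1. These counts follow from choosing large gaps and are not tests.

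Members with 1 probe far below the others were led by FBtr0339797, which had the second largest gap. Its probe A_09_P219540 read 1.84, 2.05 and 2.06 in replicates 1 to 3 of WT and -3.01, -2.26 and -3.71 in those of Top3b26 (normalized level, log2 relative to the array mean). All mutant values lay far below all WT values, and the difference of -4.98 ± 0.39 (SE) is 31.5-fold (limma adjusted p = 0.0094). Its value on Top3b26 3 lay near the dimmest probe well above background on that array (-4.60). With normexp background correction the probe gap of this transcript was 3.18 rather than 4.76, so the size of the decrease is uncertain. The probe A_09_P183620 of the same transcript read 1.13, 1.83 and 1.65 in WT and 1.19, 1.86 and 0.91 in Top3b26. Here the groups overlapped, and the difference was -0.22 ± 0.34 (limma adjusted p = 0.87). The third probe, A_09_P174610, read 1.48, 1.96 and 2.03 in WT and 1.07, 1.62 and 0.75 in Top3b26, also with overlap, and differed by -0.68 ± 0.31. Thus 2 of the 3 probes gave similar levels in both genotypes while the other fell to a small fraction of its WT level.

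At FBtr0081306 and FBtr0070652, 1 probe was also far lower in Top3b26 than the other. Each had 2 probes, so it cannot be told which of them stands apart. FBtr0081306, FBtr0070652, FBtr0070244 and FBtr0306150 were singled out after their values were seen. At FBtr0081306, A_09_P104310 read 2.91, 3.22 and 3.24 in WT and -1.881, -1.503 and -1.998 in Top3b26, a difference of -4.92 ± 0.23 or 30.2-fold (limma adjusted p = 0.0027). Its other probe A_09_P030046 read 4.95, 4.68 and 4.95 in WT and 4.23, 4.20 and 3.95 in Top3b26. The groups did not overlap at either probe, but the second difference was only -0.73 ± 0.20 and was not called (limma adjusted p = 0.25). At FBtr0070652, A_09_P066991 read 2.24, 2.61 and 2.56 in WT and -0.67, -0.34 and -1.39 in Top3b26, 9.65-fold lower (limma adjusted p = 0.017). Its other probe A_09_P182545 read 1.83, 2.45 and 2.15 in WT and 2.90, 3.42 and 2.59 in Top3b26, so that every mutant value was above every WT value. That difference of 0.83 ± 0.30 was not called (limma adjusted p = 0.39).

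FBtr0070244 had 6 probes, of which a single one separated the genotypes widely. A_09_P051371 read -0.87, -0.24 and -0.47 in WT and -3.25, -2.97 and -3.70 in Top3b26, a difference of -2.78 ± 0.29 (limma adjusted p = 0.020). On Top3b26 2 and Top3b26 3 it lay near the dimmest probe well above background (-3.33 and -4.60). The size of this difference is therefore uncertain. The differences of the other 5 probes lay between -0.61 and 0.12 and none was called. At FBtr0306150 the probe A_09_P026921 read 5.35, 5.39 and 5.42 in WT and 3.11, 3.11 and 1.75 in Top3b26, 6.64-fold lower but not called (limma adjusted p = 0.062). Its other probe A_09_P215595 read 5.202, 5.47 and 5.44 in WT and 5.69, 5.60 and 4.70 in Top3b26, with overlapping groups and a difference of -0.04 ± 0.32.

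FBtr0070583 had the largest gap and showed the reverse arrangement, with 2 probes that fell and 1 that was higher. A_09_P052086 read 5.75, 5.38 and 5.39 in WT and 1.39, 2.66 and 1.78 in Top3b26, a difference of -3.56 ± 0.37 or 11.8-fold (limma adjusted p = 0.019). A_09_P181490 read 5.16, 5.00 and 5.11 in WT and 0.91, 2.70 and 1.43 in Top3b26, a difference of -3.41 ± 0.48 (limma adjusted p = 0.048). In contrast, A_09_P030671 read 1.74, 2.06 and 1.95 in WT and 3.25, 3.25 and 3.23 in Top3b26. The mutant values of this probe were almost equal to each other and all above WT, with a difference of 1.33 ± 0.19 that just missed the threshold (limma adjusted p = 0.054). With the 75th percentile shift in place of the z-transformation it was called. FBtr0081760, named after its values were seen, was the only other member with 2 called probes, with differences of -3.30 ± 0.25 and -3.27 ± 0.23 (limma adjusted p = 0.0079 and 0.0066). Its remaining probe was lower by a smaller amount, -1.08 ± 0.19 (limma adjusted p = 0.083).

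Of the 6 members with opposite differences of at least 1, the others besides FBtr0070583 were FBtr0112633, FBtr0330335, FBtr0089123, FBtr0333375 and FBtr0072111. At FBtr0112633, A_09_P048306 read -0.88, -0.69 and -0.60 in WT and -3.37, -2.91 and -3.51 in Top3b26 and was 5.83-fold lower (limma adjusted p = 0.015). Its value on Top3b26 2 lay near the dimmest probe well above background on that array (-3.33). A_09_P004121 read -0.07, -0.46 and -0.42 in WT and 0.86, 1.51 and 0.27 in Top3b26, a difference of 1.19 ± 0.36 (limma adjusted p = 0.29). The genotypes did not overlap at either probe and were ordered in opposite ways. The third probe of this transcript was not well above background on all arrays and did not enter. At FBtr0330335, A_09_P015416 read -0.25, -0.32 and -0.31 in WT and -2.11, -1.52 and -3.50 in Top3b26, while A_09_P053446 read -1.84, -1.44 and -1.44 in WT and -0.87, 0.86 and -0.95 in Top3b26. The differences of -2.08 ± 0.52 and 1.26 ± 0.53 were not called (limma adjusted p = 0.19 and 0.47). The mutant arrays spread widely at both probes, and Top3b26 2 was highest at both.

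FBtr0089123 had 5 probes whose differences ran in steps rather than leaving 1 probe apart. A_09_P160270 and A_09_P016611 were lower by 1.39 and 1.32 (differences of -1.39 ± 0.36 and -1.32 ± 0.30), A_09_P114925 differed by -0.76 ± 0.71, A_09_P223310 by 0.18 ± 0.36 and A_09_P193970 by 1.14 ± 0.36. On the single arrays, A_09_P160270 read 1.74, 2.02 and 2.08 in WT and 0.39, 1.26 and 0.01 in Top3b26, and A_09_P193970 read 2.37, 2.24 and 2.8004 in WT and 3.58, 4.24 and 3.03 in Top3b26. None of these 5 probes was called. At FBtr0072111, chosen after its values were seen, both probes were tight and mirrored each other. A_09_P026991 read 2.37, 2.47 and 2.46 in WT and 1.195, 1.41 and 1.44 in Top3b26, and A_09_P125675 read 1.16, 1.13 and 0.98 in WT and 2.17, 2.11 and 2.27 in Top3b26. The differences were -1.08 ± 0.19 and 1.098 ± 0.19 (limma adjusted p = 0.086 and 0.079), and the mean of both probes differed by 0.01. FBtr0333375, also described after its values were seen, was less even. Its A_09_P047371 was higher on all mutant arrays, with 1.07, 1.85 and 1.86 in WT and 2.94, 3.27 and 2.05 in Top3b26, while A_09_P015421 read 1.37, 1.78 and 1.78 in WT and 0.23, 1.53 and -0.47 in Top3b26, with overlap. Neither the difference of 1.16 ± 0.41 nor that of -1.21 ± 0.53 was called.

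The members whose largest change was an increase included FBtr0340232 and FBtr0079510, with the largest gaps of this kind. At FBtr0340232, A_09_P203680 read -1.05, -1.73 and -1.41 in WT and 0.62, 2.84 and 0.55 in Top3b26, a difference of 2.74 ± 0.67 (limma adjusted p = 0.18). Its other probes A_09_P117665 and A_09_P205120 differed by -0.26 ± 0.28 and -0.63 ± 0.37, with overlapping groups. The high value on Top3b26 2 contributed much to this gap, which was 3.37 over all arrays and 2.43 without that array. At FBtr0079510, A_09_P213450 read 3.19, -1.08 and 0.69 in WT and 5.45, 5.63 and 4.71 in Top3b26, and A_09_P064071 read 5.00, 4.19 and 4.08 in WT and 6.44, 6.51 and 5.61 in Top3b26. Both probes were higher on every mutant array than on any WT array, by 4.33 ± 1.07 and 1.76 ± 0.38 (limma adjusted p = 0.19 and 0.14). The first spread over more than 4 (log2) among the WT arrays, and the gap of this member was 1.68 without WT 2.

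**Figure D2:**
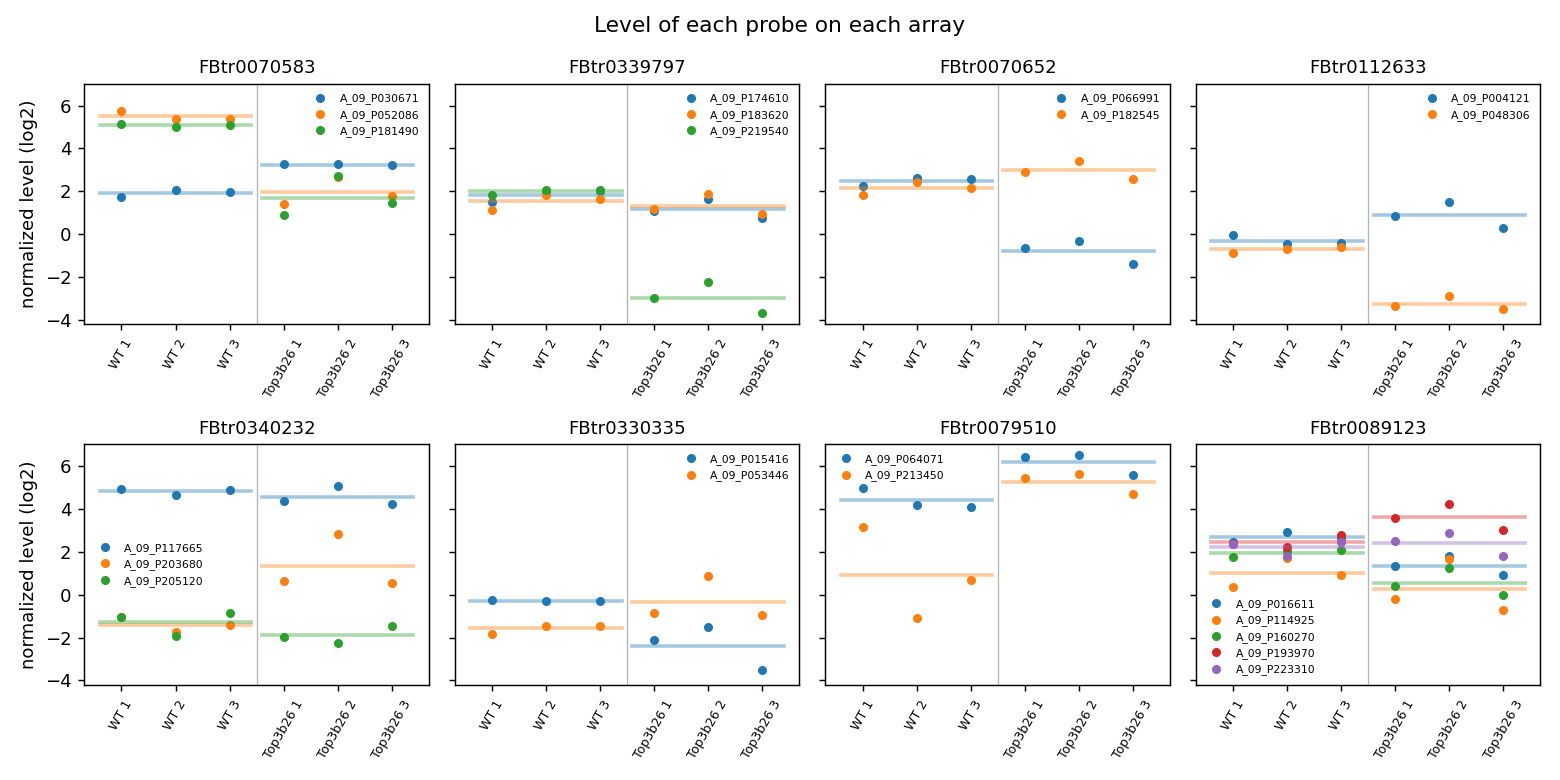
Normalized level (log2, relative to the array mean) of each probe of 8 member transcripts on the 3 WT and 3 Top3b26 arrays. Points are single arrays, colors are probes and thick bars are group means. At FBtr0339797, FBtr0070652 and FBtr0112633 a single probe drops in Top3b26, while at FBtr0079510 both probes are higher.

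Probe levels were next tested across the whole table. Of all 23007 tested probes, 0.882% were called in the comparison of genotypes, 0.713% lower and 0.17% higher in Top3b26. Over all these probes the median of Top3b26 minus WT was -0.15 (log2) rather than 0, against which single probes have to be read. Of the 256 member probes, 17 were called (6.64%), all 17 lower. The counts depended on the scaling, although more member probes were called lower than higher under both shifts. After the 75th percentile shift 29 were called lower and 4 higher, with a median difference of all probes of -0.09. After the median-difference shift 34 were called lower and 9 higher, with a median difference of 0.03. Over all probes, the calls were 266 lower and 89 higher in the former and 314 lower and 184 higher in the latter, against 164 and 39 here. The median gap of the members was 1.503 here and after the median-difference shift, and 1.506 after the 75th percentile shift. Since the members were picked in this comparison, no more is read from that count. The called probes belonged to 15 members, where 0.823% of the 3279 transcripts had a called probe. At 13 of these members a single probe was called, at 2 members 2 probes were, and at 0 members all probes were. Of the 12 other transcripts with a called probe, 7 had every probe called. Choosing members for large gaps favors this contrast, so it is not a finding about them. A difference of at least 2 (log2) was found at 21 lower and 3 higher member probes, and 13 of the 21 were called. The genotypes did not overlap at 104 member probes, where 19.8% of 22949 probes with a value on every array did not.

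The probe gap was also tested directly, by fitting the difference between the highest and the lowest probe of each transcript on every array. Limma called this gap at 44 members, where 1.98% of the 3279 transcripts were called. In this fit whatever raises or lowers both probes on an array cancels out, and the probes to compare were chosen on the same values, so that p is too small where a transcript has 3 or more probes. Among the members with 2 probes, 28 of 64 were called, where 1.64% of the 2684 transcripts with 2 probes were. With 2 probes only the sign of the gap was chosen within a transcript. These members were still picked for the size of the same gap, so neither this count nor the 44 is a test. Of the 25 largest gaps 20 were called. The gap was 4.76 ± 0.19 (SE) for FBtr0339797, 4.10 ± 0.15 for FBtr0070652, 3.74 ± 0.25 for FBtr0112633 and 2.54 ± 0.16 for FBtr0089123 (limma adjusted p = 0.0006, 0.0006, 0.0020 and 0.0020). With normexp background correction the gap of FBtr0112633 was 2.10 and that of FBtr0330335 was 1.71, and neither was called. That of FBtr0339797 was 3.18 with this correction and was still called (limma adjusted p = 0.017). Over all arrays and without this correction, the gap was 4.89 ± 0.36 for FBtr0070583, 3.34 ± 0.37 for FBtr0330335 and 2.18 ± 0.13 for FBtr0072111 (limma adjusted p = 0.0035, 0.0115 and 0.0015). For FBtr0340232 and FBtr0079510 the gap was not called (3.37 ± 0.81 and 2.57 ± 0.83, limma adjusted p = 0.17 and 0.30).

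Each slide held both genotypes, and the gap was therefore computed within each. Top3b26 1 was the only mutant array on slide 1, and WT 3 the only WT array on slide 2. Each slide gap thus rests on a single array of one of the genotypes. These values are parts of the gap that chose the members. It was above 0 on both slides at 96 of 100 members, where it was at 64% of the 3279 transcripts, and at least 1 on both at 70, where it was at 2.35%. Its median was 1.53 on slide 1 and 1.67 on slide 2. For FBtr0339797 it was 4.67 and 4.78, for FBtr0070652 3.85 and 4.29, and for FBtr0072111 2.25 on both slides. For FBtr0070583 it was 5.52 and 4.46. With the slide as a block, 35 of the 44 called gaps were still called, where 1.22% of all transcripts were called both ways. With this block 2 members, FBtr0081306 and FBtr0081760, had a called probe, where 0.0915% of transcripts had one.

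**Figure D3:**
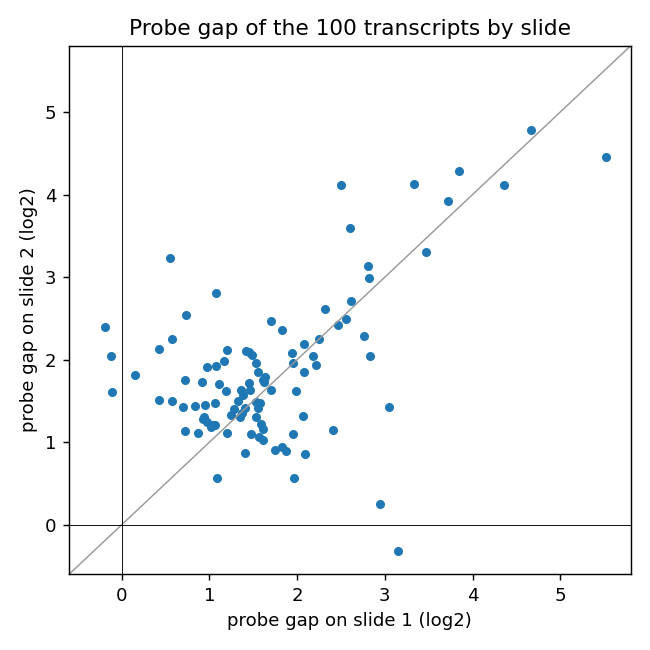
Probe gap (log2) of the 100 transcripts computed from the arrays of slide 1 (x axis) and from those of slide 2 (y axis). Each point is a transcript and the diagonal marks equal gaps. The gap is above 0 on both slides at 96 transcripts.

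The same probes were also compared among arrays of the same genotype. A value that stands apart on 1 array can raise both the gap between genotypes and the range within one, so the choice of members favors wide ranges. Over the 3 WT arrays, the difference between the highest and the lowest probe had a median range of 0.55 (log2) in members and 0.29 in the other transcripts. Over the 3 Top3b26 arrays the median range was 0.95 and 0.47. At 58 members the gap between genotypes was larger than both ranges, and at 42 it was not. It was larger at 279 of the 3179 other transcripts, a contrast that the choice of large gaps favors. The values of the gap did not overlap between genotypes at 80 members, where 19.4% of the 3279 transcripts did not overlap. Single probes were only slightly more variable than elsewhere, with a median SD over the WT arrays of 0.22 in member probes and 0.20 in probes of the other transcripts, and over the Top3b26 arrays of 0.57 and 0.49.

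**Figure D4:**
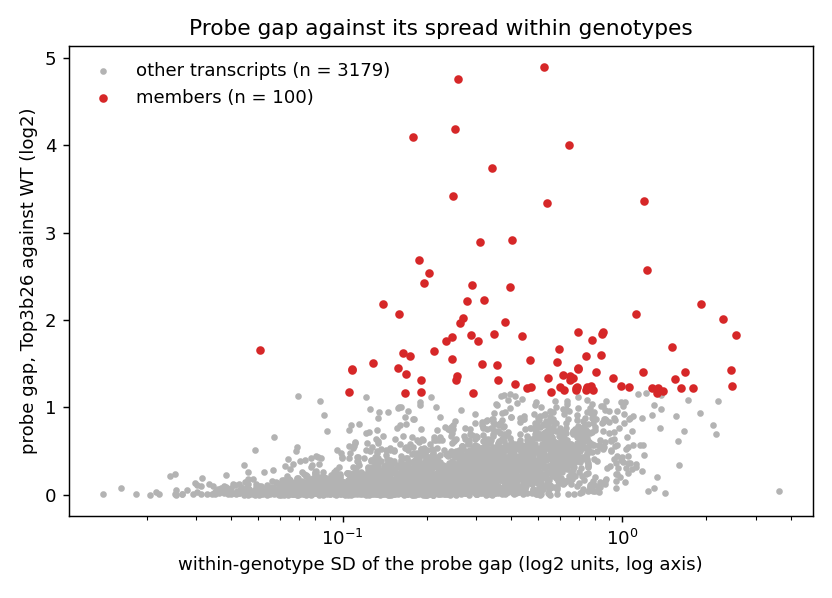
Probe gap between genotypes (log2, y axis) against the pooled SD of the same gap within genotypes (x axis, log scale) for the 100 members and the 3179 other transcripts. Members lie above 1.17 on the y axis by the rule, and they include both gaps with little spread and gaps with an SD above 1.

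Single arrays decided some gaps. Without any 1 array in turn, 50 members kept a gap as large as that of the last member, and the gap of 36 moved by over 1.5 times. At 11 members the gap of the same probes came under 0.5 when 1 array was left out. An example, chosen after its values were seen, is FBtr0343559, at which A_09_P125980 read -1.90 on WT 1 but 4.10 and 4.04 on WT 2 and WT 3 and 3.66, 4.30 and 3.03 in Top3b26. Its gap of 2.01 was 0.16 without WT 1. FBtr0078928 resembled it, as A_09_P135310 read -3.35 on WT 1 and between 2.604 and 3.20 on the other 5 arrays, and its gap of 1.82 was -0.24 without WT 1. At the rest of these members the array was Top3b26 3 (5 members, FBtr0088175, FBtr0112398, FBtr0075314, FBtr0088335 and FBtr0083109), Top3b26 2 (3 members, FBtr0076734, FBtr0085894 and FBtr0087792) or Top3b26 1 (1 member, FBtr0301070), and their gaps without it lay between -0.32 and 0.46. The array whose loss lowered the gap most was Top3b26 2 at 35 members and Top3b26 3 at 27, against 4 to 13 members for each of the other 4 arrays.

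Top3b26 2 and Top3b26 3 stood apart at some member probes. Once the typical difference between these arrays was subtracted, 14 member probes exceeded their Top3b26 2 level by over 3 (log2) on Top3b26 3, and they lay in 11 members. At 8 of these members another probe of the transcript did not show this. Of the 3179 other transcripts, 115 held such a probe. The part of this variation in the probe gaps was not tested.

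Some member probes were dim. On some array, 18 member probes were within 1 (log2) of the dimmest probe well above background, and at 14 members an extreme probe was among these. Saturation was absent, with 0 saturated spots. Of the member probes, 61 had 2 or more spots on each array, and the median SD between spots of a probe was 0.0495 (log2), compared with 0.0470 over all eligible transcripts. At 2 members both extreme probes had replicate spots, and 1 of them was FBtr0330335.

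Among the 36 members with 3 or more probes it can be seen whether 1 probe stands alone. At 13 of them a single low probe lay at least 1 (log2) below the next, while the others lay within 1 of each other. At 8 a single high probe lay apart in the same way. At the remaining 15 there was no single probe apart. Besides those above, FBtr0309865 had 4 probes and FBtr0073704 and FBtr0073662 had 3, and in each the lowest was apart from the next by 2.68, 3.36 and 2.16. At FBtr0332560 and FBtr0301267, the highest was apart by 1.81 and 1.503. These 5 transcripts were picked out after their values were seen.

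Few members were called once their probes were combined, and for some of these the call depended on how this was done. With the brightest probe of each identifier, 4 members were called, where 0.87% of 18151 identifiers were. With the mean of the probes 2 were called, where 0.893% were, and FBtr0081760 was the only member called by both. Of the 15 members with a called probe, 11 were not called by their brightest probe, against 3 of 12 other transcripts with one. The brightest probe was the extreme probe with the smaller change at 55 members and the one with the larger change at 25. Of the 3179 other transcripts, these were 1669 and 1303. The brightest probe and the mean differed in sign at 35 members and at 401 other transcripts. The choice of large gaps bears on these counts, which are not tests. For FBtr0339797 the difference was -0.68 by the brightest probe and -1.96 by the mean (limma adjusted p = 0.50 and 0.086), and for FBtr0070652 it was 0.83 and -1.22 (limma adjusted p = 0.38 and 0.20).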

How the data were processed

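Total RNA from fly heads was labeled with Cy3 and hybridized to 6 Agilent 4x44K arrays. Per the file headers, the deposited intensity values are Feature Extraction 11.5.1.1 processed signals, background subtracted and spatially detrended within each array. A second file deposited by the authors holds score values, z-transformed log signals. They matched z-scores over all spots to within 0.00502. Following this transformation, the log2 signal of each array was standardized here over its 43602 non-control spots and multiplied by the mean array SD (3.89). Outlier spots were left out and spots of a probe averaged. A probe was well above background where all its spots were. FBtr probes well above background but without a value on every array, 34 in all, did not enter the probe gaps, and 58 tested probes were fitted on the arrays that had one. R 4.3.3 and limma 3.58.1 compared Top3b26 with WT over 23007 probes that were well above background throughout WT, Top3b26 or both, with Benjamini-Hochberg adjustment over all of them, and over 3279 transcripts for probe gaps. Calls have an adjusted p of 0.05 or less. Levels of different probes were not read as relative amounts of RNA, and brightness served only to pick 1 probe of an identifier.

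The members and lists were chosen with earlier results of these data known. Transcripts were named by rule: 2 with the largest gap whose most changed probe was higher, 2 whose was lower, 4 with opposite differences of at least 1, and 2 with 3 or more probes. Others were named after their values were seen. Alternatives were other normalizations, normexp, filters on dim probes, kept outlier spots, slide and replicate blocks and leaving out each array. Marker lists for head and eye, fat body, testis and ovary matched 0 genes, and that of male RNAs matched 2 (roX1 and roX2, not used). The design assumed mean spot signals for normexp, and median spot signals were used.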

Additional observations from a re-analysis of the deposited data

How the results depend on the processing

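The median probe gap of the members, 1.503, lay between 1.196 (normexp) and 1.644 (without Top3b26 1) over the alternatives run. The rule applied anew chose 98 of the 100 members after the 75th percentile shift and with the deposited table, 84 after quantile normalization, 73 after normexp, 86 with the slide as a block, and 72 to 85 without 1 array. Of alternatives chosen after seeing the data, counting a probe as well above background where any of its spots is chose 87, and allowing missing values 99.

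Called probes were less stable. The 15 members with one became 30 after the 75th percentile shift, 37 after the median-difference shift, 6 after quantile normalization, 3 after normexp, 2 with a slide block, 8 where dim probes were kept, and 1 to 36 without 1 array. The lowest was without any WT array (1 each) and the highest without Top3b26 2. There were 2 without Top3b26 1 and 9 without Top3b26 3. Calls over all tested probes rose or fell in the same way in each of these settings, so the shifts were not particular to members. From 164 lower and 39 higher they went to 110 and 27 after quantile normalization and 39 and 4 after normexp. They were 42 and 2 with a slide block, and 388 and 110 without Top3b26 2. The 44 members with a called gap became 17 after normexp and 24 to 52 without 1 array, with 25 without WT 2 and 24 without WT 3. With only the 26 members whose probes were all above the median level of tested probes, 11 gaps were called and 17 members had opposite signs, counts limited by the smaller set. Shares of called gaps over all transcripts are not given for these settings. Whether the shifts in called gaps were particular to members therefore cannot be told. The 68 members with opposite signs were 50 to 71 without 1 array. What caused these changes was not tested.

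With the replicate number as a block, 0 members had a called probe and 33 a called gap. Over all tested probes 13 were called lower and 0 higher with this block. The share of called gaps over all transcripts is not given for it. The deviations of same-numbered arrays correlated across probes at 0.564, 0.591 and -0.371. The labels link these arrays only by their number. Whether samples of the same number were prepared together is not stated and was not tested.

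The 7 transcripts named by rule kept the direction of their gap in all 100 values under alternatives, which their choice made likely, and were called in 67. FBtr0112633 lost its call under normexp, where its gap was 2.10 (limma adjusted p = 0.097). FBtr0330335 lost it under normexp with a gap of 1.71 (0.10) and without any WT array with gaps of 3.18 to 3.42 (0.066 to 0.087), and FBtr0340232 was called only without Top3b26 2 (0.017). FBtr0079510 was called in 0, with adjusted p from 0.13 to 0.62. Signal over background was lowest on Top3b26 2, which limits dim probes there.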

Other observations

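Of identifiers other than FBtr, such as cDNA clones and transcript clusters, 177 had 2 or more probes well above background on all 6 arrays. Their median probe gap was 0.16 (log2) and their largest 4.27, and 10 of them had a gap at least as large as that of the last of the 100 transcripts.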
